A study of Mus musculus with 6 samples.

Results

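In wild-type (WT) mouse natural killer (NK) cells, 172 protein-coding genes were assigned 2 or more separate regions of Ikaros enrichment by chromatin immunoprecipitation with sequencing (ChIP-seq). The genes were found in 3 deposited peak lists, 1 for each WT library. Peaks that shared at least 1 base were merged into regions across the lists. A gene was kept when the rows of at least 2 regions named it in the authors' gene column with a protein-coding biotype. The 172 genes made up 8.02% of the 2145 protein-coding genes named anywhere in the lists, and 165 of them matched a RefSeq coding gene, or 0.754% of the 21896 in that table. They held 368 of the 2526 merged regions. Because 6 regions counted for 2 of the genes, there were 374 gene and region combinations. Members were selected on the peak calls themselves (positions and gene assignments), so the values below are descriptions and carry no test.

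The study immunoprecipitated Ikaros from splenic NK cells expanded in culture with IL-15 at 50 ng/ml. There were 3 WT samples and 3 samples with a deletion of Ikzf1 that is conditional on NKp46. NKp46 is a surface receptor of NK cells, and the deletion is limited to cells that express its gene. Cells were fixed with 2% formaldehyde, chromatin was sheared to between 100 and 200 bp, and each immunoprecipitation took 2 µg of anti-Ikaros antibody. Strain and age are not given in the sources used here, and the knockout libraries were not analysed here. Nothing in the labels says that the WT samples came from separate animals or cultures, so differences between lists may be technical.

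Ikaros, encoded by Ikzf1, is a zinc finger transcription factor of lymphocytes that binds DNA with GGGAA as its core and works with chromatin remodelling complexes, including the NuRD complex. It is known for its part in lymphocyte development. A gene can carry several binding sites, for example at its promoter and at enhancers inside or beyond the gene body, and a peak list assigns each of them to a gene by position alone.

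The lists held 685, 2084 and 1342 peaks for replicates 1, 2 and 3. They carry no read counts, and sequencing depth is therefore unknown. Strength is the deposited fold enrichment of a peak, a linear ratio that belongs to its own list. It was used to describe peaks within a list, and as a percentile, where 100 is the strongest peak of that list. Of 7 NK markers, Klrb1c had 2 regions, Gzmb had 1, and Ncr1, Eomes, Tbx21, Il2rb and Prf1 had none assigned to them. None of 20 T cell and 20 B cell markers had a region, and of 24 myeloid markers Ccr2 had 2 and Csf2ra 1. Most coding genes had no region: the lists named 2145 of them, while the RefSeq table holds 21896. A count of 0 in 20 has a Clopper-Pearson interval that reaches 16.8%. The marker counts therefore cannot show whether T, B or myeloid cells were present or absent. Peaks also do not measure expression, so the identity of the cells could not be checked here.

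Of the 10 genes with 2 regions found in every list, Klf10, Kpna1 and Gm20388 had no start site in the RefSeq promoter table. Among the 10, 5 had one of these regions over a start site in that table. The 250 bases before that start site are shown, since they are the DNA lying under a site that recurred in all lists while the gene carried another. Sequences are from RefSeq (GRCm38.p6, the mm10 build), read 5′ to 3′ on the gene's strand, and capitals mark GGGAA or its reverse complement TTCCC. They lie at chr2:68861191-68861440 on the plus strand for Cers6, chr12:78226405-78226654 on the plus strand for Gphn, chr6:128788642-128788891 on the minus strand for Klrb1c, chr2:48949258-48949507 on the plus strand for Mbd5, and chr5:53590096-53590345 on the plus strand for Rbpj.
Cers6: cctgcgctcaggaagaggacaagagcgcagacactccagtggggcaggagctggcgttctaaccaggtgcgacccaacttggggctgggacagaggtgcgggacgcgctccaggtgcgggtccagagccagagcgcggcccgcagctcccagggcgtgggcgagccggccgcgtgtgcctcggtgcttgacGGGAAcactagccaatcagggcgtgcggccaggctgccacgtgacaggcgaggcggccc
Gphn: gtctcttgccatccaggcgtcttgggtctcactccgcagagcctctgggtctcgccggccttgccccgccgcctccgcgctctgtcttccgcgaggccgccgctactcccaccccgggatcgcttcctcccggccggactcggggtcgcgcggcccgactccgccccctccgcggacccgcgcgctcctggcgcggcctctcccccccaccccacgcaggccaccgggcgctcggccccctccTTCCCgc
Klrb1c: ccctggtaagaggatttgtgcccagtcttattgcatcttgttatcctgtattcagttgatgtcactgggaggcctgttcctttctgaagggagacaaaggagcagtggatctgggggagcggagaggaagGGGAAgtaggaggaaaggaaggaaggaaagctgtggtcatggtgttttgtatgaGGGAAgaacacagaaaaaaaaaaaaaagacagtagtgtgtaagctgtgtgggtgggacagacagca
Mbd5: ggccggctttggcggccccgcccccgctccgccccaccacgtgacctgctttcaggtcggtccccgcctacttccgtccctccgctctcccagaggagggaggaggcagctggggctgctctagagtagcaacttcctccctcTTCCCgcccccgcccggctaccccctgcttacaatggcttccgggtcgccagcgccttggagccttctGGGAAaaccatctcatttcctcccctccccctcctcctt
Rbpj: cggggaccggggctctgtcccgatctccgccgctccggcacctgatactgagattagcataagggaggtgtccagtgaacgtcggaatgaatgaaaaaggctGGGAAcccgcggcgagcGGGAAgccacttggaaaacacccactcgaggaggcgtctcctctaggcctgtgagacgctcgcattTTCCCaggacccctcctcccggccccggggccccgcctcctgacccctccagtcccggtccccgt
Regions covered all 250 bases in 4 of these genes and 247 bases in Cers6. GGGAA, on either strand, was present 3 times before Rbpj, 2 times before Klrb1c and Mbd5, and 1 time before Cers6 and Gphn. The longer form TGGGAA, which contains GGGAA, occurred 2 times before Rbpj and 1 time before Mbd5. Klrb1c stood apart in base composition, with 47.6% G and C against 65.2% to 77.2% in the other 4.

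Across all member genes, regions overlapped 70 such promoter windows of 60 genes. The overlap was as low as 4 bases, while motifs were sought in the whole window. A motif counted here can therefore lie outside the region. Some genes gave more than 1 window, and the intervals treat windows as independent. GGGAA was present in 65.7% of the 70 (95% Clopper-Pearson interval 53.4% to 76.7%), in 64.1% of 951 windows under a region of a gene with 1 region, and in 56.2% of all 32851 windows. TGGGAA was present in 24.3% (14.8% to 36.0%), 19.7% and 21.6%. The AP-1 motif TGANTCA was found in 0 of 70 windows, for which the interval reaches 5.13%, against 3.47% and 6.75%. CCGGAAGT, the ETS motif, was found in 1.43%, 8.62% and 2.88%. All motifs were searched on both strands. Windows under a member region had a median GC content of 66.8%, compared with 65.2% for single-region genes and 52.4% for all windows, and its part in these shares was not tested. Intervals here and below cover counting error over windows, regions or genes only.

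Most member regions were seen in a single list. Of the 368 regions, 230 (62.5%, 57.3% to 67.5%) had a peak in 1 list, 75 (20.4%) in 2 lists and 63 (17.1%, 13.4% to 21.4%) in all 3. The background over all 2526 regions was 57.1% in 1 list, 42.9% in 2 or more and 19.8% in all 3. Regions of the 1973 genes with 1 region, just below the limit of the rule, had 55.4%, 24.4% and 20.2% in 1, 2 and all lists. Replicate 2, the longest list, was the only source of 177 member regions (48.1%), against 38.2% of single-gene regions and 41.3% of all regions. Member regions had a peak in 91, 309 and 169 cases in replicates 1, 2 and 3. The longest list also gave the most genes: 15, 127 and 36 genes had 2 or more regions with a peak in the list of replicate 1, 2 and 3. Leaving out replicate 2 left 47 genes.

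**Figure D1:**
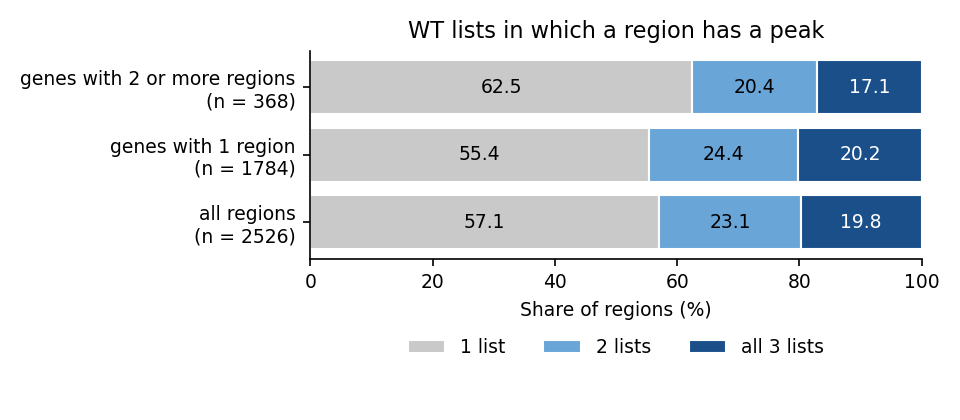
Stacked bars of the share of regions (percent, x axis, from 0) with a peak in 1, 2 or all 3 WT lists, for genes with 2 or more regions, genes with 1 region and all regions (rows). Member regions were in all lists in 17.1% of cases and single-gene regions in 20.2%.

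At the level of the gene, 10 of 172 (5.81%, 2.82% to 10.4%) had 2 regions that were each in all lists, 45 had exactly 1 such region and 117 (68.0%) had none. Allowing 2 lists or more, 27 genes (15.7%) kept at least 2 regions and 62 genes had none. No list on its own held 2 regions of 32 genes (18.6%), so these were multiple only across libraries. For 112 genes exactly 1 list did so, and this was replicate 2 for 100, replicate 3 for 10 and replicate 1 for 2. A pair of lists held 2 regions of 18 genes, and all 3 lists did for 10.

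The 10 genes with 2 recurring regions included a transporter, a ceramide synthase, transcription regulators, an NK receptor and a migration factor. Slc35d1 (ENSMUSG00000028521) encodes a nucleotide sugar transporter. Its region on chr4 at 103202646 to 103203058 lay 12.1 kb from the start site and was enriched 11.9-fold in replicate 1, 20.0-fold in replicate 2 and 18.7-fold in replicate 3. The other, at 103214308 to 103214662 and 0.514 kb from the start site, had 7.76, 8.94 and 7.91. Slc35d1 was the only member gene with both regions at or above the 90th percentile in every list. The inner site was higher than the one near the start in each of the 3 lists.

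Mbd5 (ENSMUSG00000036792), a methyl-CpG-binding domain protein, and Kpna1 (ENSMUSG00000022905), an importin alpha that carries cargo into the nucleus, each paired a very strong region with one that was several times lower in every list. In Mbd5 the region inside the gene, 41.0 kb from the start at chr2 48990471 to 48991063, had folds of 20.5, 48.9 and 31.4. Its region over the start site (48949171 to 48949547) had 6.0, 5.46 and 4.09, and the rows of only 1 list named Mbd5 there. In Kpna1 the region at chr16 36008542 to 36009167 had 18.8, 37.0 and 22.9. The companion at 35981574 to 35981922 had 4.21, 3.04 and 3.63, and lay 1.37 kb outside the RefSeq span. The ratio of the stronger to the weaker region was 3.42, 8.96 and 7.68 in Mbd5 and 4.46, 12.2 and 6.31 in Kpna1.

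Cers6 (ENSMUSG00000027035), a ceramide synthase, Klf10 (ENSMUSG00000037465), a zinc finger factor induced by TGF-beta, and Klrb1c (ENSMUSG00000030325), the NK1.1 antigen by which mouse NK cells are recognised, paired regions of like strength. Cers6 had 5.64, 4.72 and 4.51 over its start site and 5.52, 5.52 and 5.37 at 11.8 kb from it. Klf10 had 5.41, 4.67 and 6.09 in its region overlapping the gene (chr15 38299138 to 38299924). The other, 1.10 kb away and 0.316 kb outside the gene, had 4.85, 4.35 and 5.02. Klrb1c had 5.10, 5.12 and 5.14 at a region 17.7 kb outside the gene (chr6 128760211 to 128760776) and 4.53, 6.38 and 4.95 at its start site (128788563 to 128788960). The higher of the pair differed between lists in Cers6 and Klrb1c.

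Rbpj (ENSMUSG00000039191), the DNA-binding effector of Notch signalling, had its stronger region far from the start. The distant site (chr5 53490750 to 53491168), 99.2 kb from that start site, had folds of 7.44, 5.58 and 6.15. The region over the start site (53589150 to 53590460) had 4.58, 4.53 and 4.06. The distant site was 64.6 kb beyond the RefSeq span although the authors' column counts it as overlapping Rbpj.

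Gphn (ENSMUSG00000047454), which encodes the inhibitory synapse scaffold gephyrin, and Dock2 (ENSMUSG00000020143), a Rac exchange factor of lymphocyte migration, held recurring regions far apart. Gphn had 5.34, 5.93 and 5.44 over its start and 3.73, 2.84 and 3.32 at 124 kb inside the gene. Dock2 had 3.37, 4.40 and 4.02 at chr11 34543208 to 34545026 and 2.89, 3.77 and 3.13 at 34681678 to 34683473. Both Dock2 regions were at or below the 38.0th percentile in each list. The gene model Gm20388 completed the 10, with 4.78, 5.05 and 4.02 at 1 region and 4.74, 4.23 and 4.62 at the next, 1285 kb away. In 7 of the 10 genes the same region was the higher one in all 3 lists.

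**Figure D2:**
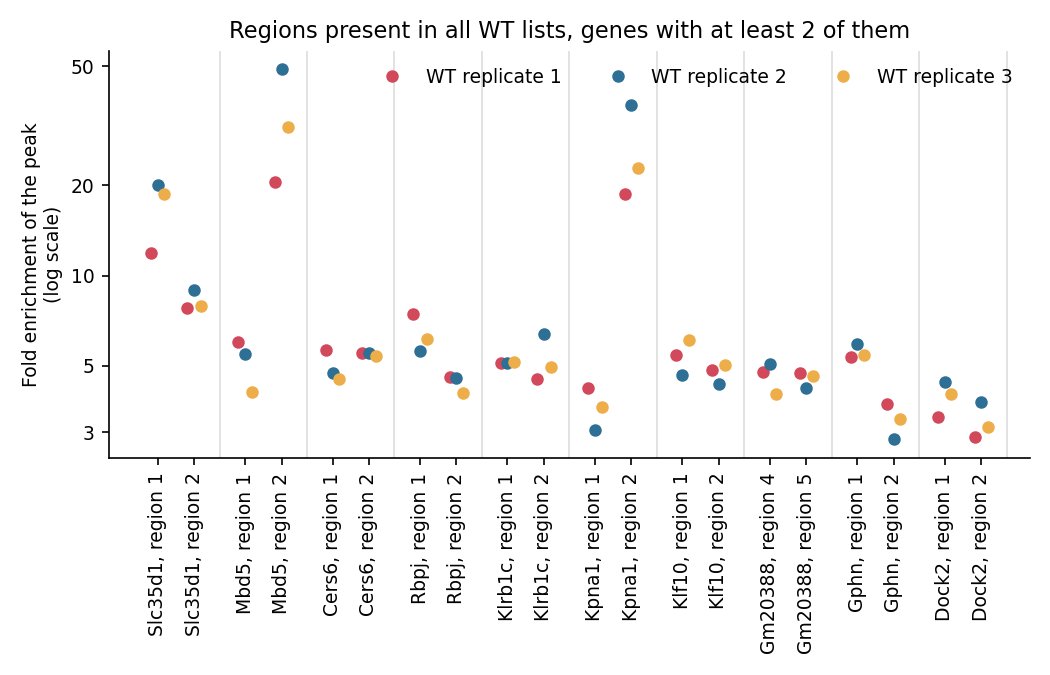
Fold enrichment of the peak (ratio, log y axis) at both recurring regions of each of the 10 genes (x axis), with 1 point per WT replicate. Mbd5 and Kpna1 show the widest gap between their regions, reaching a ratio of 12.2, and Klf10 reaches at most 1.21.

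Most genes had just 2 regions. There were 151 genes with 2, 18 with 3, and 1 each with 4 (Fgfr2), 5 (Chd1) and 9 (Gm20388). The 3 highest counts rested on very long gene models. All 9 regions of Gm20388, a model not in the RefSeq table, were spread along chr8 from 120487117 to 124231757. Its first 2 regions were also counted for Gse1. Fgfr2, a fibroblast growth factor receptor, had 4 regions that lay 379 to 2856 kb beyond its RefSeq span, and each was in 1 list. The farthest, with 5.03 in replicate 1, lay within Ctbp2 and was also counted for that gene. Chd1 (ENSMUSG00000023852), a chromatin remodeller, had 1 region within its RefSeq span, with 3.45 and 3.72 in replicates 2 and 3, and 4 regions 1179 to 1522 kb beyond it. The only one of these in all lists had 5.70, 8.57 and 5.46, and the farthest had 7.84 and 7.70 in replicates 2 and 3.

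Among the 172 genes, 5 were gene models with no RefSeq match (Gm20388, Gm20458, Gm28053, Gm37240 and Gm44511), with 20 gene and region combinations. In 14 genes, 22 combinations were marked by the authors as overlapping a gene while they lay outside its RefSeq span. For 11 combinations in Fgfr2, Chd1, Slc22a14 and Rbpj the distance was over 50 kb. Gm44511 took 3 regions close to Klrb1c, 1 of them the Klrb1c start site.

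The other 15 genes had 3 regions each. Their RefSeq spans ran from 47.9 to 792 kb, and their regions covered 8.69 to 289 kb. Inpp4b, a phosphatase of the phosphoinositide pathway, had 3 regions 400 to 423 kb from its start. They had folds of 4.27, 5.75 and 5.68 in replicate 2, and those with 5.75 and 5.68 also had 4.78 and 4.54 in replicate 3. Fam227b had 4.57, 7.31 and 4.81 at its region 3.91 kb from the start, and 6.94 and 5.37 in replicates 2 and 3 at its start site. Chn2, a GTPase-activating protein for Rac, combined a strong region in all lists (7.43, 11.3 and 10.4) with 2 regions of replicate 2 alone, at 4.97 and 3.53.

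Cdk17, a cyclin-dependent kinase, had 4.81, 4.19 and 3.96 at 1 region and 2 regions of replicate 2 only. Rere, a nuclear receptor corepressor, had a region at 65.5 kb from its start with 7.87 and 7.33 in replicates 2 and 3, and 2 regions of 1 list. Mgat5, a glycosyltransferase, Rai1, a chromatin-associated regulator, and Nup153, a nuclear pore protein, each had 1 region in 2 lists and 2 in 1 list. Lrch1 had a region 0.826 kb from its start with 5.33 and 4.69 in replicates 1 and 2. Of all 21 genes with 3 or more regions, 6 had a region in all lists and 4 had none in more than 1 list. Among the latter was Ptprc, which encodes the leukocyte antigen CD45 and was picked after its values were seen, with 4.89, 4.37 and 3.89 in replicate 2 alone.

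**Figure D3:**
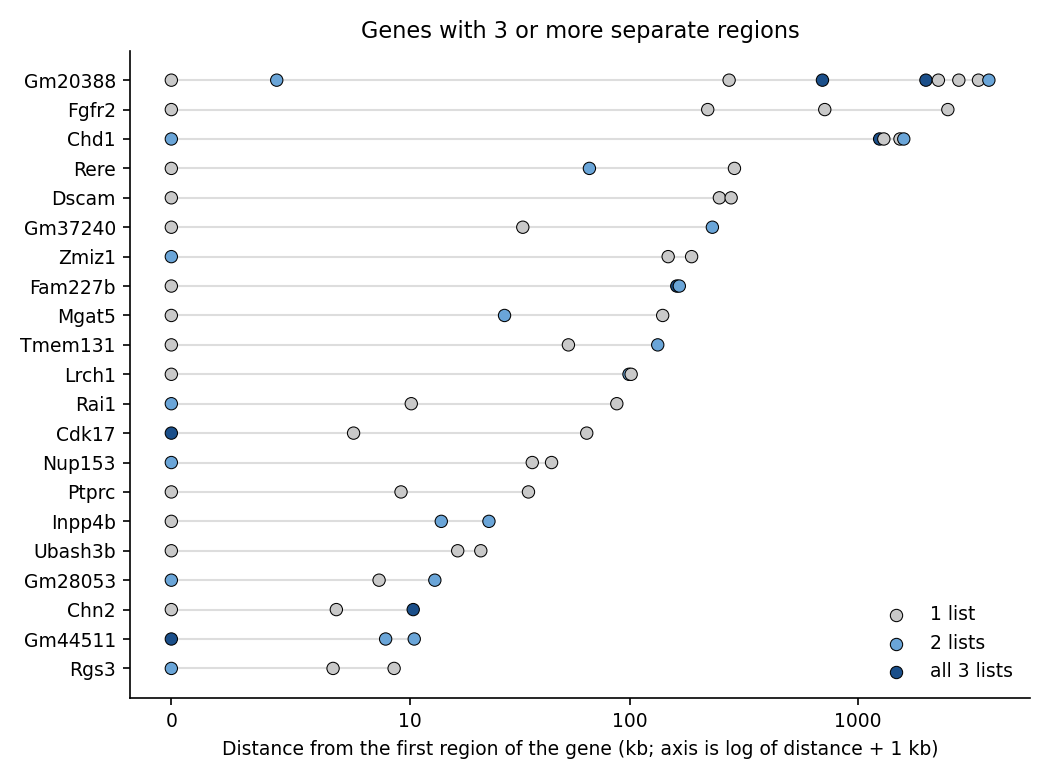
Regions of the genes with 3 or more (1 row per gene), by distance from the first region in kb (x axis, log of distance plus 1 kb). Points are single regions, coloured by the number of lists with a peak. The rows of Gm20388, Chd1 and Fgfr2 stretch over more than 1000 kb, whereas the other RefSeq models span at most 289 kb.

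Neighbouring regions of a gene were a median of 20.8 kb apart over 202 pairs, with quartiles of 5.07 and 62.3 kb. Gaps ranged from 10 bp in G3bp1 to 1760 kb in Fgfr2. In 50 pairs (24.8%) the gap was under 5 kb, in 8 under 1 kb and in 4 under 500 bp, while 36 pairs were 100 kb or more apart. Both regions of a pair were held by no common list in 42 pairs (20.8%), by 1 list in 134 (66.3%), by 2 in 16 and by all 3 in 10.

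The closest pairs came from different lists. G3bp1, a stress granule protein, had a region of replicate 2 with 4.28 and one of replicate 1 with 3.69, 10 bp apart. Sp1, a zinc finger factor of GC-rich promoters, had 4.46 in replicate 2 and 5.12 in replicate 3, 204 bp apart. Ctbp2, a corepressor, had 5.03 in replicate 1 and 4.95 in replicate 2, 383 bp apart. In Mib1, a ubiquitin ligase of Notch ligands looked up after its values were seen, the gap was 495 bp and the lists were again 3 and 2. Thus no list held both regions in any of the 4 pairs under 500 bp.

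**Figure D4:**
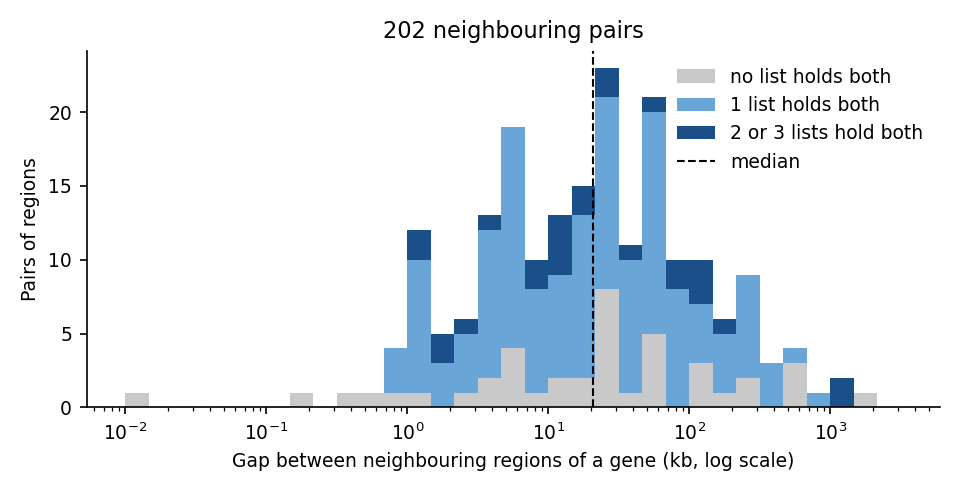
Stacked histogram of the gap between neighbouring regions of a gene (kb, log x axis), with the number of pairs on the y axis, coloured by how many lists hold both regions; the dashed line is the median of 20.8 kb. The 42 pairs held by no common list include the 4 closest, all under 500 bp.

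Regions of these genes lay within the gene, by the authors' column, in 284 of 374 combinations (75.9%), against 83.4% for single-region genes. The other 90 were outside it at a median of 3.60 kb and at most 492 kb, in Edem1, which is named here after its value was seen. All regions overlapped the gene in 97 genes, none did in 14, and 61 had both kinds. Exons and introns were not assigned. Distances to a start are to the nearest start site listed for that gene. Starts that are not listed were not counted, so near and distant refer to listed starts only. The start-site table covered 127 of the genes and 270 combinations. Within 1 kb of a start site lay 84 combinations (31.1%, 25.6% to 37.0%), against 1041 of 1517 (68.6%) for single-region genes. A gene with several regions far apart cannot have all of them near 1 start site, so the 2 shares are not alike in construction.

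Of the 127 genes, 72 had a region near a start site together with a distant one, 6 had only near regions and 49 had none near. Near regions were in all lists in 23 of 84 cases (27.4%) and distant ones in 21 of 186 (11.3%). Near regions were also wider, with medians of 400 and 283.5 bp. Width spans all merged peaks of a region, so a region in more lists can be wider by construction. In the 72 genes with both kinds, the near region was in more lists in 28, the distant one in 13, and they were equal in 31. In replicate 2, 48 of these genes had a peak at both, and the distant one had the higher fold in 27 of them. Where a gene had several distant regions, the highest value among them was taken, which favours the distant side in both comparisons.

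The strongest and the weakest region of a gene differ in rank by construction, and their values are given only as a description. The median percentile of the strongest and weakest region was 60.7 and 29.1 in replicate 1 (15 genes), 69.9 and 27.4 in replicate 2 (127 genes), and 61.6 and 21.6 in replicate 3 (36 genes). Member regions had median percentiles of 43.4, 47.8 and 44.9 in the lists, against 51.4, 49.5 and 50.1 for single-gene regions. In replicate 2, the median percentile was 42.2 for member regions in 1 list, 55.2 in 2 lists and 77.1 in all 3.

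At or above the 90th percentile in every list were 9 member regions of 8 genes. They were 2.45% of member regions, near the background of 2.14% of all regions. Apart from Slc35d1, Mbd5, Kpna1 and Chn2, the genes included Lrp2bp, Cldn12 and Fam111a, which were singled out after their values were seen. Lrp2bp had 46.4, 85.2 and 57.9 at a region 1.23 kb outside the gene, and 5.14 at its second region in replicate 2 alone. Cldn12, a claudin of tight junctions, had 19.5, 45.7 and 36.5, at 13.8 kb beyond the RefSeq span, and 3.83 at its start site in replicate 2. Fam111a, a protease, had 13.7, 31.5 and 23.1 at 21.4 kb beyond the RefSeq span. Except for Slc35d1, the genes named here had 1 region of that rank and at least 1 weaker one.

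The genes were also long. The median RefSeq span was 71.5 kb for 165 member genes, 30.5 kb for 1885 single-region genes and 17.1 kb for all coding genes. A span of 100 kb or more was found in 40.6%, 18.2% and 11.1%. A longer gene can take in more regions under the rule, and the part of length in the count of regions was not tested.

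The authors' mark for transcription factors was set for 18 member genes (10.5%, 6.32% to 16.0%) against 104 of 1973 single-region genes (5.27%). They were Bach2, E2f3, Egr1, Hic1, Hivep2, Jund, Lef1, Maff, Mnt, Myc, Nfkb1, Rai1, Rbpj, Rere, Satb1, Smad3, Sp1 and Zfp219. Of these, 11 had a region in 2 lists or more, 7 had none, and Rbpj alone had 2 such regions. The mark does not cover every factor: it was not set for Klf10, which had 2 regions in all lists. Mnt, a MAX partner that represses, and Maff, a small MAF protein, were looked up after their values were seen. Each had 1 region in all lists and 1 in replicate 2: Mnt with 5.54, 4.75 and 6.22 at its start site, and Maff with 4.90, 4.46 and 5.54 at its own.

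In 14 gene lists of NK and lymphocyte biology, 21 of 417 genes (5.04%) had 2 or more regions and 93 had 1. The background was 0.754% of RefSeq coding genes, with or without a region. The share of 8.02% among coding genes named in the peak lists covers only genes with at least 1 region. The 5.04% also counts list genes with none, so it is not alike to the 8.02%. The lists were written with earlier results known, and 151 of the 172 genes were in none of them. Of the 21, 9 had no region in more than 1 list, and Klrb1c, Dock2 and Mbd5 had 2 in all lists.

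Transcription factors of NK lineage gave 3 of 39 with several regions, 8 with 1 and 28 with none. Lef1, an effector of Wnt signalling, had 5.08, 5.96 and 4.94 at a region 0.422 kb from its start and 5.37 in replicate 2 at 52.4 kb. Bach2, a repressor that restrains effector differentiation, had 4.09 and 4.02 in replicates 2 and 3 at 1 region, and 3.98 in replicate 2 at the other. Both lay within its RefSeq span, 178 and 166 kb from the nearest start site listed for it. Their distance to any unlisted start is unknown. Zfp36l2, an RNA-binding protein that promotes mRNA decay, had 4.75 and 4.79 in replicates 1 and 2 at a region over the gene. Its other region, 1.69 kb outside the gene, had 3.83 in replicate 2 alone. Of the Ikaros family, 0 of 5 had several and Ikzf2 had 1.

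In the NF-kappa-B, NFAT, EGR and NR4A list 2 of 26 had several. Egr1, a zinc finger factor induced within minutes of stimulation, had 4.54, 4.39 and 4.08 at 1 region and 3.97 in replicate 2 at the next. Nfkb1, the precursor of the p50 subunit, had 4.79 in replicate 2 and 4.67 in replicate 3 at separate regions. AP-1 gave 1 of 14: Jund, with 3.67 and 6.25 in replicate 2 alone.

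Cell cycle genes gave 3 of 32. Myc, a driver of growth, had 4.75 and 3.94 in replicates 2 and 3 at 1 region and 4.15 in replicate 2 at the other. E2f3, which activates S-phase genes, had 5.05 in replicate 2 and 3.81 in replicate 3 at separate regions. Rb1, the retinoblastoma protein that restrains E2F factors, had 4.11 in replicate 2 and 4.27 in replicate 3. The regions of E2f3 and Rb1 were each in 1 list.

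Chromatin genes gave 4 of 60, Mbd5 and Chd1 among them. Arid1a, a BAF complex subunit, had 6.36, 6.37 and 6.42 at 0.288 kb from its start. Its second region, 0.026 kb outside the gene, had 5.10 and 4.36 in replicates 2 and 3. Arid1b, its paralogue, had 4.53 and 4.18 in replicate 3 only, 86.5 and 0.445 kb from its start. Arid1a was thus seen in more lists than Arid1b.

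Among NK receptors and adaptors 2 of 41 (4.88%, 0.596% to 16.5%) had several regions, Klrb1c and Tyrobp. The share over all 14 lists was 5.04%. Tyrobp, the DAP12 adaptor of activating receptors, had 3.73 in replicate 2 at 18.9 kb outside the gene. At its second region, 2.60 kb outside, it had 4.72 and 3.91 in replicates 2 and 3. Il4ra, the IL-4 receptor alpha chain, was 1 of 39 cytokine receptor and signalling genes (2.56%, 0.0649% to 13.5%). It had 4.87 and 3.73 in replicates 2 and 3 at 1.72 kb outside the gene. Its other region, 9.39 kb outside, had 5.07 in replicate 2 alone.

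Survival genes gave 2 of 27. Bcl2, which blocks apoptosis, had 3.90 in replicate 2 and 3.95 in replicate 1, the latter at its start site. Bbc3, which encodes the death-promoting PUMA, had 3.70 in replicate 3 at its start site and 3.58 in replicate 2 at 2.46 kb. No region of either gene recurred. Of 32 cytotoxicity and effector cytokine genes none had several (interval up to 10.9%), and 9 had 1, Ifng, Gzma, Gzmb and Fasl among them. The myeloid marker Ccr2, a chemokine receptor, had 4.74 and 4.24 in replicate 2.

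Tgfb1, a cytokine that restrains NK cells and was picked after its values were seen, had 4.64 and 5.25 in replicates 2 and 3 at its start site and 7.55 and 5.99 at 2.22 kb. At a −log10 q of at least 5, 18 genes had 2 or more regions, among them Arid1a, Atp23, Atp9b, Cers6, Chd1, Col15a1, Dock2, Fam227b, Gm37240, Gm44511, Inpp4b, Itpr1, Kpna1, Mbd5, Rpia, Siae and Slc35d1. Of the 10 genes with 2 recurring regions, Cers6, Dock2, Kpna1, Mbd5 and Slc35d1 met that limit.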

How the data were processed

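Ikaros ChIP-seq peak lists of 3 WT samples were used; labels gave the groups. The submitters' processing notes name MACS2, Subread, SAMtools, Picard and edgeR 3.20.0, and the build mm10, without their roles. Columns of the deposited lists are, per the file headers, fold enrichment (a linear ratio), −log10 q, a nearest or overlapping gene, its biotype, a distance and a width. For the control library, q threshold and gene annotation, nothing is given in the sources used here. The peak names show calling per library.

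Peaks sharing 1 base were merged, and regions were counted per protein-coding gene. Percentiles rank fold enrichment within 1 list. RefSeq tables of GRCm38.p6, which is mm10, gave spans, start sites and promoter sequence. Scripts used Python 3.11.15, NumPy 2.4.6, SciPy 1.17.1 (Clopper-Pearson intervals at 95%), pandas 2.3.3 and matplotlib 3.10.9. Counting was checked on simulated data with well separated regions, each of 1 gene. That check does not cover close pairs or regions shared by genes. No test was made, since the rule used the same peak calls.

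Members and gene lists were chosen with earlier results of these data known. Genes were named by these rules: the 15 with most regions, those with 2 regions in all lists, up to 4 per gene list, and the 3 shortest and 3 longest gaps; others are marked in the text. Some genes and 1 gene list that these rules or counts include are not reported here.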

Additional observations from a re-analysis of the deposited data

How the results depend on the processing

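Each count rests on calls in 3 lists of unequal length whose depth is unknown, and a call in 1 list shows no absence in another. Requiring a −log10 q of at least 5 left 18 genes and 39 regions, with 23.1% of regions in all lists. Keeping only regions in 2 lists or more left 27 genes and 57 regions, with 54.4% in all lists. With regions in all 3 lists only, 10 genes, 20 regions and a median gap of 34.4 kb remained; the share in all lists is then fixed. Counting only regions that overlap the gene gave 100 genes and 221 regions. Joining peaks within 5 kb left 130 genes with 2 or more regions and gave a median gap of 35.9 kb. Leaving out 1 replicate gave 47 to 161 genes, 99 to 345 regions, 24.0% to 35.4% in all remaining lists and median gaps of 19.0 to 26.6 kb; without replicate 2 there were 47 genes and 99 regions, at 26.6 kb. The next 2 alternatives were chosen after seeing the data. Leaving out gene models absent from RefSeq or far beyond their RefSeq span left 161 genes, and counting lists only where their rows name the gene left 172 with 16.8% in all lists. Assigning regions by RefSeq gave 196 genes, 145 shared with the 172. No paired analysis was possible because knockout samples enter no result and nothing was compared between groups.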
